A study of Mus musculus with 10 samples.

Results

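The Cyp2 family of cytochrome P450 genes was examined in mouse liver after loss of the histone variant H3.3. Members were all genes of the deposited count table whose name starts with Cyp2, a subfamily letter and a number, pseudogenes included, and which had at least 10 counts summed over the 10 livers. Of 71 such names among 55421 gene identifiers, 52 were members, 41 of them protein coding genes and 11 pseudogenes, and all 52 were among the 22449 genes tested. A further 10 names had 0 counts in every liver and 9 had fewer counts than the minimum. The 52 members fell into 5 genes of Cyp2a, 5 of Cyp2b, 16 of Cyp2c, 15 of Cyp2d, 4 of Cyp2j and 1 each of Cyp2e, Cyp2f, Cyp2g, Cyp2r, Cyp2s, Cyp2t and Cyp2u.

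Whole livers of 10 male mice were profiled by poly(A) RNA-seq, 3 weeks after a retro-orbital AAV8 injection at 6 months of age. The H3.3 KO group held 4 C57BL/6 mice floxed at both H3.3 genes (H3f3a fl/fl, H3f3b fl/fl by their titles, although the genotype field reads HIRA fl/fl) that had received AAV8 Tbg-Cre. Of the 6 controls, 3 were wildtype mice given the same Cre virus (WT Cre controls) and 3 were mice of the floxed genotype given the Cre-free vector AAV8 Tbg-MCS (MCS controls). Tbg is a hepatocyte promoter, so other cells of the liver were not meant to lose H3.3. The strain is given for the floxed mice only, and nothing in the labels ties livers to litters or batches.

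Cytochrome P450 enzymes are haem proteins of the endoplasmic reticulum that insert an oxygen atom into their substrates, using electrons passed on by P450 oxidoreductase and cytochrome b5. In the Cyp2 family the substrates include drugs, plant compounds and solvents, but also steroids, bile acids, vitamin D and arachidonic acid. Most mouse Cyp2 genes lie in clusters that arose by duplication, and in liver many of them follow the lobular zone, the sex of the animal or xenobiotic receptors such as CAR.

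The close copies within these clusters bear on every value given below. On transcripts of GENCODE M21 (mm10), a 100-base window was taken as a gene's own when no other gene's transcript held the same bases. By that measure 42 of 52 members had at least 90% own windows and 20 had no shared window at all. With windows of 50 bases 28 members reached 90% and 4 members had under 50%. The least distinct members were Cyp2b27-ps with 62.4% own 100-base windows, Cyp2c69 with 64.6%, Cyp2c40 with 65.6%, Cyp2c67 with 76.3% and Cyp2c68 with 80.2%. How the counting treated reads with several matches, and whether it used the strand, is not given in the sources used here. In addition, 18 of the 52 members overlap another annotated gene, 8 on the same strand and 11 on the opposite strand, so some of their reads could belong to that gene.

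Cyp2a4 and Cyp2a5 are the pair of abundant members that are hardest to tell apart. Their coding sequences have 1482 bases each and differ at 23 of them (98.4% identical), and 183 of the 1383 windows of 100 coding bases (13.2%) hold no difference. The stretch with the most differences, coding bases 570 to 669 of both genes on the plus strand of chromosome 7 (GENCODE M21, mm10), is shown because reads from it tell the genes apart, and the 5 differing bases are in capitals.
Cyp2a4 coding window: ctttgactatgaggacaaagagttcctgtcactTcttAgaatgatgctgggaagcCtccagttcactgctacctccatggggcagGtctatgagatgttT
Cyp2a5 coding window: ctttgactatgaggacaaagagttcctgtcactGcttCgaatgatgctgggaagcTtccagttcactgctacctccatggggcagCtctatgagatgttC

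Their promoters are as close. In the RefSeq promoter table (GRCm38.p6, from 250 bases before to 50 after each annotated start), which held 34 of the 52 members, the windows of Cyp2a4 and Cyp2a5 differed at 5 of 299 aligned bases and those of Cyp2b9 and Cyp2b13 at 2 of 300. The bases upstream of the start are shown for both pairs, since all 4 genes rose in KO but by very different factors. Each lies on the plus strand, at chr7:26306943-26307191 for Cyp2a4, chr7:26835089-26835337 for Cyp2a5, chr7:26173159-26173408 for Cyp2b9 and chr7:26061245-26061494 for Cyp2b13. Capitals mark the bases that differ within the pair, 4 of 249 for the Cyp2a pair and 2 of 250 for the Cyp2b pair.
Cyp2a4 upstream window: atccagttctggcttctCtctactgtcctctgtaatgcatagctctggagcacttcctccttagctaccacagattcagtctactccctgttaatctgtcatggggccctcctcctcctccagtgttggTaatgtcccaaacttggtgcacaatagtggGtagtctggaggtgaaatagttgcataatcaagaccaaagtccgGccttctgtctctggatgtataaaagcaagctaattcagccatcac
Cyp2a5 upstream window: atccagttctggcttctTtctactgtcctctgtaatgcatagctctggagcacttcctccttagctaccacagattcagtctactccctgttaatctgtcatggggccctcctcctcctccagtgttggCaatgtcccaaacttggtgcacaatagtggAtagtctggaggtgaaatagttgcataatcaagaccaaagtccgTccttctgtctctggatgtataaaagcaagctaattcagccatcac
Cyp2b9 upstream window: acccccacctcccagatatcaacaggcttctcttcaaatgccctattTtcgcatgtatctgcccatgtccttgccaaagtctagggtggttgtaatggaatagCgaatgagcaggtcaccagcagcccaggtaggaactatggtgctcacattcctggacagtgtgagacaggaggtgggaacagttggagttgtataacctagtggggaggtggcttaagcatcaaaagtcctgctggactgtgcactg
Cyp2b13 upstream window: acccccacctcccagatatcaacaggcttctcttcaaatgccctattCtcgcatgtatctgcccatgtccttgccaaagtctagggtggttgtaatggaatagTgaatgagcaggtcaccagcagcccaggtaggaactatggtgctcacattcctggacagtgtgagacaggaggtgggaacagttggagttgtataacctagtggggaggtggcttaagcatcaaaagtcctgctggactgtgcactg

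The targeted genes were examined first. H3f3a stood at 62.1 ± 1.58 CPM (n = 6, SD) in the controls and 17.4 ± 1.66 CPM (n = 4, SD) in KO, and H3f3b at 160.0 ± 24.05 CPM (n = 6, SD) and 50.5 ± 7.40 CPM (n = 4, SD), where CPM are counts scaled by the TMM-adjusted size of the library. Total counts ran from 14998426 in KO 1 to 26096141. Of 20 hepatocyte marker genes, Cyp2 genes not among them, 19 were tested, 14 fell and 1 rose, whereas all 10 Kupffer cell and all 10 stellate cell markers rose. Over all genes tested, 16.6% fell and 19.7% rose in the fit described below. Summed hepatocyte markers ran from 120547 to 138502 CPM in KO and from 151547 to 222840 CPM in the controls. In RNA from whole tissue, fewer hepatocytes and less RNA of a gene per hepatocyte cannot be told apart. The labels do not show which control column belongs to which control mouse except by the library number, and every value for one kind of control rests on that match.

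Differential expression between the 4 KO livers and all 6 controls was tested with the quasi-likelihood test of edgeR over 22449 genes, and changes are given as log2 fold changes (log2FC). Of the 52 members, 15 rose (28.8%) and 15 fell (28.8%) at an adjusted p under 0.05, against 19.7% of all genes tested that were higher and 16.6% that were lower. With an absolute log2 fold change over 1 as well, 14 members were higher (26.9%) and 8 lower (15.4%), against 12.9% and 5.79% of all genes. The median log2 fold change was 0.03 over the members and -0.003 over all genes. In 14 members (26.9%) all KO livers lay above all controls and in 12 (23.1%) all lay below them, against 12.5% and 12% of all genes. The remaining 22 of the 52 members did not pass, with log2 fold changes from -1.99 to 2.32. Of the members that passed, Cyp2b27-ps and Cyp2g1 reached the minimum of 10 counts only through the group in which they were higher, and without them 14 rose and 14 fell. Cyp2b19 (through KO) and Cyp2j8 (through the controls), which did not pass, reached it in the same way. Of the 13 members under a mean of 1 CPM, 2 rose, 1 fell and 10 did not pass.

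Levels in the controls were set beside the calls. The median control level was 10.8 CPM for the 15 members that rose, 305 CPM for the 15 that fell and 1.5 CPM for the 22 that did not pass. Among the 12 members with the highest mean control CPM, 7 fell, 2 rose and 3 did not pass. Of all genes tested 16.6% fell and 19.7% rose. Control levels also enter the log2FC, and the shares among other genes of like level were not counted. Whether this pattern is particular to the family was therefore not tested.

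**Figure D1:**
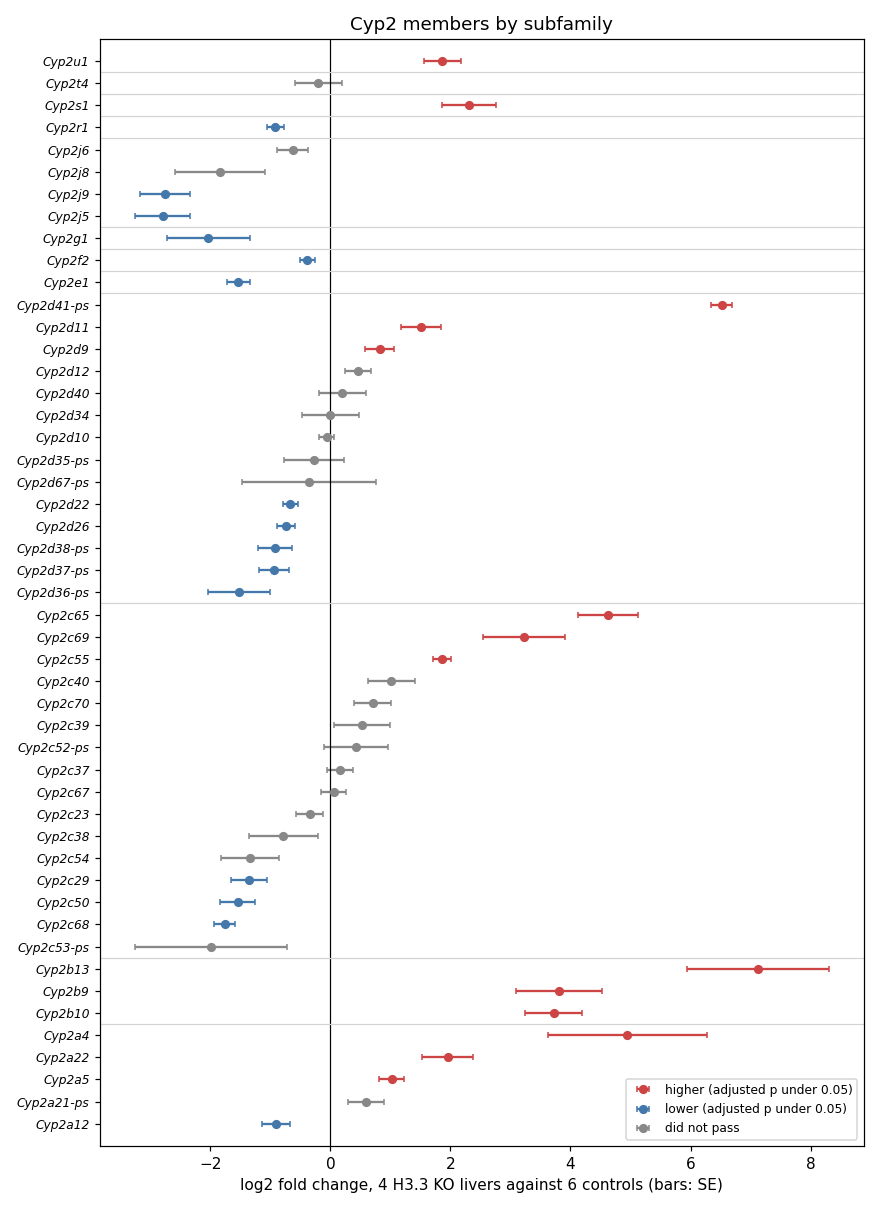
Log2FC (x axis) for each of 49 Cyp2 members, 4 KO livers against 6 controls, grouped by subfamily. Bars show the SE, derived from the log2FC and the F statistic of edgeR. Red marks members that rose, blue those that fell (adjusted p under 0.05) and grey those that did not pass, and the 3 members with 3 counts or fewer in every control library (Cyp2b19, Cyp2b27-ps and Cyp2d32-ps) are left out. All Cyp2b members plotted lie right of 0 and all Cyp2j members left of it, although Cyp2j8 reached the minimum of counts only through the controls. Cyp2c and Cyp2d hold members on both sides.

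Summed over all members, the family took 16212 ± 3157 CPM (n = 6, SD) in the controls and 12655 ± 1651 CPM (n = 4, SD) in KO, or 78.1% of what the controls held. The sums were 13875, 13215 and 13179 CPM in WT Cre controls 1 to 3, 18084, 18572 and 20350.2 CPM in MCS controls 1 to 3 and 14722, 12818, 12377 and 10704 CPM in KO 1 to 4. All KO livers therefore lay below all MCS controls, but KO 1 lay above every WT Cre control. The WT Cre controls (13423 ± 392 CPM, SD, n = 3) themselves lay below all MCS controls (19002 ± 1193 CPM, SD, n = 3). The family total was not tested. Scaled by library size only, it was 88.8% of the control mean.

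The make-up of the family was described by shares of its total. Cyp2e1 alone held 30.3% of the family total in the controls and 13.4% in KO, and Cyp2c held 26.3% and 21.7%. Cyp2d went from 20.4% to 29.3%, Cyp2a from 7.32% to 17.9% and Cyp2b from 0.258% to 5.02%. Cyp2j went the other way, from 4.53% to 1.15%. Subfamily totals in KO lay above all controls for Cyp2a, Cyp2b, Cyp2s and Cyp2u, below all controls for Cyp2e, Cyp2f, Cyp2j and Cyp2r, and overlapped for the other 4. Scaled by library size only, the Cyp2f total overlapped as well, with KO up to 1604 CPM and a lowest control of 1513 CPM.

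**Figure D2:**
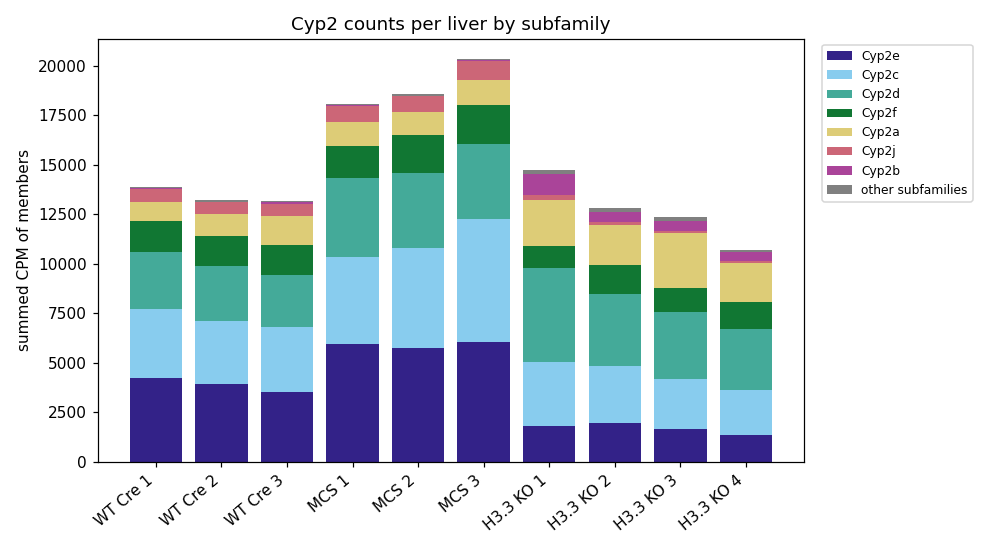
Summed CPM of Cyp2 members in each of the 10 livers, stacked by subfamily from Cyp2e at the bottom. KO bars hold between 1338 and 1945 CPM of Cyp2e against 3510 to 6053 CPM in the controls, and between 465 and 1031 CPM of Cyp2b against 14.2 to 91.1 CPM.

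The Cyp2b genes had the highest ratio of KO to control total of the 12 subfamilies. Of these genes only Cyp2b10 was listed as inducible through the receptor CAR, while Cyp2b9 and Cyp2b13 were listed as female-biased only. Of 5 members 4 rose (80%, against 19.7% of all genes) and 0 fell (against 16.6%). The 4 include Cyp2b27-ps, which was tested only because of its counts in KO. The subfamily total was 15.2 times the control mean. It was 1031, 518, 527 and 465 CPM in KO 1 to 4 against 43.6, 16.8 and 91.1 CPM with WT Cre and 33.1, 14.2 and 52.1 CPM in the MCS controls. KO 1 stood far above the other KO livers, and without it the ratio to the controls was 12.03.

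Cyp2b10 (chromosome 7 at 25897620 to 25926624, mm10), the member most used as a readout of CAR in mouse liver, stood at 19.2, 7.59 and 14.97 CPM in the WT Cre controls, at 7.94, 8.53 and 36.8 CPM in the MCS controls and at 206, 172, 167 and 285 CPM in KO 1 to 4. All KO livers lay above all controls, with KO 4 the highest. In the fit over all genes this was a log2FC of 3.72 ± 0.476 (SE, adjusted p = 0.000351 by edgeR).

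Cyp2b9 (chromosome 7 at 26173411 to 26210661), a gene known for higher levels in female than in male liver, stood at 24.2, 9.07 and 74.6 CPM in the WT Cre controls, 24.5, 5.63 and 15.1 CPM in the MCS controls and 608, 320.0, 333 and 173 CPM in KO. Again no KO liver reached down to the controls, although WT Cre control 3 stood well above every other control. Its log2FC was 3.81 ± 0.720 (SE, adjusted p = 0.00347 by edgeR), and on the per-length scale it went from 13.6 to 191 CPM per kb of exon.

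Cyp2b13 (chromosome 7 at 26061497 to 26096197), whose upstream bases are nearly those of Cyp2b9 as printed above, was close to undetected in the controls, with 6, 3 and 37 counts in the WT Cre and 15, 1 and 4 counts in the MCS controls. KO 1 to 4 had 3266, 614, 570 and 196 counts, that is 213, 24.3, 24.02 and 7.496 CPM. The rise was present in every KO liver but KO 1 stood far above the other KO livers. Its log2 fold change was 7.12 ± 1.18 (SE, adjusted p = 0.00192 by edgeR) with all livers and 5.28 (adjusted p = 0.000498 by edgeR) without KO 1. Cyp2b13 overlaps the pseudogene Rnf170-ps on its own strand.

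The pseudogene Cyp2b27-ps had 0 counts in all 6 controls and 64, 39, 52 and 4 counts in KO 1 to 4. Set against 3 counts over all control libraries, its mean in KO was at least 96.4-fold higher. It was tested only because of its counts in KO, only 62.4% of its 100-base windows were its own and BC026762 overlaps it on the opposite strand. Cyp2b19, known from skin, was at the edge of detection, with 3 counts in the 6 controls and 12 in the 4 KO livers, and did not pass (edgeR adjusted p = 0.061).

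Of the 5 Cyp2a members 3 rose (60%, against 19.7% of all genes) and 1 fell (20%, against 16.6%). The pseudogene Cyp2a21-ps did not pass (log2FC 0.59, adjusted p = 0.139 by edgeR). The subfamily total was 1.91 times the control mean, at 960 to 1462 CPM in the controls and 1988 to 2784 CPM in KO.

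Cyp2a4 (chromosome 7 at 26307169 to 26315088), a steroid 15-alpha-hydroxylase with higher levels in female than in male liver, stood at 291, 837, 1362 and 919 CPM in KO 1 to 4. The WT Cre controls had 21.6, 24.2 and 114 CPM and the MCS controls 1.71, 1.96 and 1.56 CPM. The 3 kinds of liver did not overlap, but KO 1 was the lowest KO liver and WT Cre control 3 lay far above the other controls. On the deposited FPKM scale the MCS controls were not as low, at 13.0 to 13.6. The WT Cre controls had 28.4, 30.2 and 88.3 FPKM there and KO 1 to 4 194, 479, 785 and 540 FPKM. The rise was a log2FC of 4.95 ± 1.32 (SE, adjusted p = 0.0189 by edgeR) against all controls, 4.00 ± 0.787 (SE, adjusted p = 0.00716 by edgeR) against the WT Cre controls and 8.92 ± 1.03 (SE, adjusted p = 0.000487 by edgeR) against the MCS controls. Between the kinds of control the difference of 4.92 did not pass (edgeR adjusted p = 0.0557). Without WT Cre control 3 the log2 fold change against all controls was 6.38 (adjusted p = 0.00442 by edgeR), and without KO 1 it was 5.23 (adjusted p = 0.0224 by edgeR). With the replicate numbers as a block in the fit, the rise did not pass (5.10, edgeR adjusted p = 0.0587).

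Cyp2a5 (chromosome 7 at 26835305 to 26843548), the coumarin 7-hydroxylase, was already abundant in the controls, at 508, 542 and 779 CPM with WT Cre and 396, 374 and 459.5 CPM in the MCS controls. KO 1 to 4 had 1421, 813, 1088 and 807 CPM, all above the highest control. Its log2 fold change of 1.02 ± 0.215 (SE, adjusted p = 0.00277 by edgeR) was well below that of Cyp2a4, though the difference between the genes was not tested. For 100 counts of Cyp2a5 the MCS controls held 0.341 to 0.525 counts of Cyp2a4, the WT Cre controls 4.24 to 14.7 and the KO livers 20.5, 103, 125 and 114. This proportion depends on the scale, since the MCS controls had 13.0 to 13.6 FPKM of Cyp2a4 and 170 to 198 FPKM of Cyp2a5. Of the 100-base windows of Cyp2a4, 11.2% are shared with Cyp2a5, and of its 50-base windows 36.1%. The part of shared reads in the value of either gene was not tested.

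Cyp2a22 stood at 4.92 to 18.3 CPM in the controls and 23.7 to 75.3 CPM in KO, without overlap, and its log2FC was 1.95 ± 0.419 (SE, adjusted p = 0.00574 by edgeR). It overlaps Cyp2a21-ps on the opposite strand, and on log2(FPKM + 1) the rise did not pass (0.50, limma adjusted p of 0.117). Cyp2a12, an enzyme that hydroxylates bile acids, went in the other direction, from 638 ± 162 CPM (n = 6, SD) to 339 ± 117 CPM (n = 4, SD), at a log2FC of -0.91 ± 0.237 (SE, adjusted p = 0.0101 by edgeR). KO 1, at 508 CPM, lay among the WT Cre controls (419 to 549.8 CPM) and the other KO livers below them. With the replicate numbers as a block in the fit, the fall of Cyp2a12 did not pass (-0.79, edgeR adjusted p = 0.0547).

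**Figure D3:**
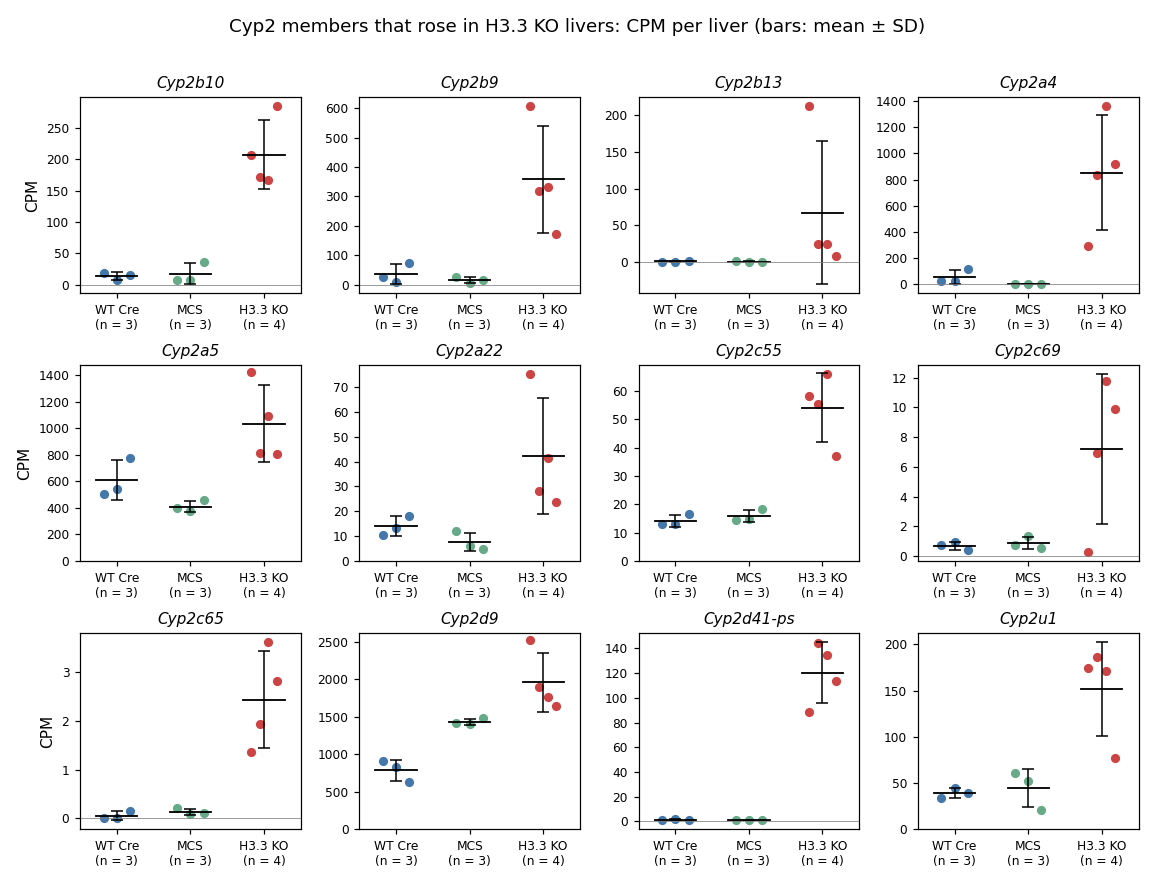
CPM per liver of 12 members that rose, in the WT Cre controls (blue, n = 3), MCS controls (green, n = 3) and H3.3 KO livers (red, n = 4), with the mean and SD in black and a linear axis for each gene. KO lies above all controls in every panel except Cyp2c69, where KO 1 stands at 0.261 CPM. In the Cyp2b13 panel KO 1 stands apart at 213 CPM.

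All Cyp2c members lie on chromosome 19. Of 16 members 3 rose (18.8%), 3 fell (18.8%) and 10 did not pass, shares near those of all genes (19.7% and 16.6%), with a median log2 fold change of 0.11, and the subfamily total in KO was 64.2% of the control mean. KO and the WT Cre controls overlapped in that total, at 2304 to 3224 and 3164 to 3506 CPM, whereas the MCS controls had 4369 to 6216 CPM.

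The 3 members that fell were Cyp2c29, Cyp2c50 and Cyp2c68. Cyp2c29 (chromosome 19 at 39269405 to 39330713), an arachidonic acid epoxygenase of the pericentral zone, had 1256, 1216 and 1343 CPM with WT Cre, 1704, 1819.9 and 2547 CPM with MCS and 1066, 582, 557 and 362 CPM in KO. KO 1 was nearest to the controls but below the lowest of them. On the log2 scale the change was -1.36 ± 0.304 (SE, adjusted p = 0.00489 by edgeR). In the annotation Cyp2c53-ps overlaps the first part of this gene on the same strand, and on the per-length scale Cyp2c29 went from 538 to 209.7 CPM per kb.

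Cyp2c50 (chromosome 19 at 40089688 to 40113950), of the same group of epoxygenases, also lay below all controls in KO, with 423, 261, 187 and 169 CPM in KO 1 to 4 against 529 to 688 CPM with WT Cre and 787 to 1152 CPM in the MCS controls. Its log2FC was -1.55 ± 0.293 (SE, adjusted p = 0.00185 by edgeR). Cyp2c68 stood at 81.4, 57.2, 54.6 and 43.6 CPM in KO against 167 to 263 CPM in the controls (log2FC -1.76, adjusted p = 1.5e-05 by edgeR). It shares 16.7% of its 100-base windows and 35.6% of its 50-base windows with Cyp2c40.

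Cyp2c54, a further gene of this group, did not pass against all controls (log2FC -1.34, adjusted p = 0.0559 by edgeR), but did with all livers by DESeq2 (adjusted p = 0.00505) or with filterByExpr (edgeR adjusted p = 0.0366), and without WT Cre control 2 at -1.49 (adjusted p = 0.0331 by edgeR) or WT Cre control 3 at -1.52 (adjusted p = 0.0143 by edgeR). The MCS controls had 274, 296 and 406 CPM, the WT Cre controls 164, 98.1 and 70.7 CPM and KO 1 to 4 105, 100.0, 76.1 and 62.8 CPM. KO overlapped the WT Cre controls and lay below every MCS control. The log2 fold change was -1.92 ± 0.280 (SE, adjusted p = 0.000674 by edgeR) against the MCS and -0.37 ± 0.279 (SE, adjusted p = 0.362 by edgeR) against the WT Cre controls, and the kinds of control differed by -1.55 ± 0.305 (SE, adjusted p = 0.0469 by edgeR). Cyp2c37, which lies in the same cluster and is also induced through CAR, had 183 to 467 CPM in the controls and 278 to 414 CPM in KO (log2FC 0.16, adjusted p = 0.607 by edgeR).

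The members that rose were low in the controls. Cyp2c55 (chromosome 19 at 39007019 to 39042693), an arachidonic acid hydroxylase that CAR and PXR activators induce, had 13.05, 12.97, 16.5, 14.3, 14.7 and 18.3 CPM in WT Cre controls 1 to 3 and MCS controls 1 to 3, and 58.2, 55.3, 65.9 and 37.1 CPM in KO 1 to 4. Every KO liver had at least 37.1 CPM and no control more than 18.3. The log2 fold change was 1.85 ± 0.148 (SE, adjusted p = 2.48e-06 by edgeR). Cyp2c65, a gene of the gut, had 0, 0, 4, 5, 2 and 2 counts in the 6 controls in that order and 21, 49, 86 and 74 counts in KO, with a fitted log2 fold change of 4.62 ± 0.499 (SE, adjusted p = 2.53e-05 by edgeR) that at so few control counts depends on the prior count.

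Cyp2c69, a gene of female liver, had 17, 21 and 10 counts in the WT Cre, 18, 30 and 10 counts in the MCS controls and 4, 175, 279 and 258 counts in KO 1 to 4. KO 1 had fewer counts than any control, while KO 2 to 4 lay far above them. In the fit over all genes this was a log2FC of 3.22 ± 0.688 (SE, adjusted p = 0.00523 by edgeR). On the deposited FPKM values, which are per length and per library depth, the gene had 15.2 in the controls and 18.03 in KO, and no change passed there (0.23 on log2(FPKM + 1), limma adjusted p of 0.349). Its near copy Cyp2c40, also known from female liver, did not pass (log2FC 1.01, adjusted p = 0.0615 by edgeR), but passed by DESeq2 (1.03, adjusted p = 0.0394), scaled by library size only (1.22, edgeR adjusted p = 0.0266), without KO 1 at 1.26 (adjusted p = 0.014 by edgeR) or MCS control 2 at 1.27 (adjusted p = 0.0236 by edgeR). It had the opposite sign on log2(FPKM + 1) (-0.24, limma adjusted p of 0.21). The values of both are therefore uncertain.

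Cyp2c70 (chromosome 19 at 40153353 to 40187333), which makes muricholic acids from chenodeoxycholic acid in mice, had 330.4, 790.4, 762 and 854 CPM in KO 1 to 4 against 327, 340.5 and 249 CPM with WT Cre and 379, 616 and 604 CPM in the MCS controls. KO 2 to 4 were above all controls and KO 1 was among them. The difference did not pass (log2FC 0.71, adjusted p = 0.0983 by edgeR). It passed by DESeq2 (0.73, adjusted p = 0.049), scaled by library size only (0.92, edgeR adjusted p = 0.0321) and without KO 1 (0.94, edgeR adjusted p = 0.0189).

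Promoter letters were searched in the 34 members of the RefSeq table on both strands, in the 300 bases around the start. The letters CAAAGTCCA, an HNF4 element of the kind known from liver genes, were found in 6 members (17.6%) and in 0.475% of all 32851 promoters. All 6 were Cyp2c genes. The windows of Cyp2c40, Cyp2c67, Cyp2c68 and Cyp2c69 were 68.3% to 92.3% identical to each other, so the 6 are not independent matches. The element is shown in capitals with 10 bases on either side, because the genes that carry it did not move together. It is read along the gene's strand (plus for Cyp2c65, minus for the others).
Cyp2c40, chr19:39812841-39812869: atcattgagaCAAAGTCCAtttggaagag
Cyp2c65, chr19:39060880-39060908: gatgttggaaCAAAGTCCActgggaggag
Cyp2c67, chr19:39649149-39649177: atcattgagaCAAAGTCCAtttggaagca
Cyp2c68, chr19:39741160-39741188: atcattgaaaCAAAGTCCAattggaagag
Cyp2c69, chr19:39886826-39886854: atcattgagaCAAAGTCCAtttggaagag
Cyp2c70, chr19:40187332-40187360: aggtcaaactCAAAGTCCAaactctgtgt

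Of these 6, Cyp2c65 and Cyp2c69 rose, Cyp2c68 fell and the other 3 did not pass. Of the other motifs, searched in the same way, TATAAA stood in 20 of 34 members (58.8%) and 13.6% of all promoters, AGGTCA, a nuclear receptor half-site, in 11 (32.4%) and 16.3%, and CCAAT in 16 (47.1%) and 37.4%. The STAT5 letters TTCNNNGAA were in none of the 34 windows and in 8.30% of all promoters. AGGTCA stood in Cyp2a4, Cyp2a5, Cyp2b9 and Cyp2b13, which rose, in Cyp2c29, Cyp2f2 and Cyp2j5, which fell, and in Cyp2b19, Cyp2c70, Cyp2d40 and Cyp2t4, which did not pass. A match of letters is a description of the window only.

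In the Cyp2d cluster on chromosome 15, 3 of 15 members rose (20%, against 19.7% of all genes), 5 fell (33.3%, against 16.6%) and 7 did not pass, with a median log2 fold change of -0.06. The subfamily total overlapped between the groups, at 2647 to 3976 CPM in the controls and 3088 to 4743 CPM in KO.

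Cyp2d9 (chromosome 15 at 82433437 to 82456845), a testosterone 16-alpha-hydroxylase known for higher levels in male liver, was the most abundant member of the cluster. The WT Cre controls had 904, 823 and 632 CPM, the MCS controls 1414, 1403 and 1481 CPM and KO 1 to 4 2519.9, 1903, 1769 and 1641 CPM. The 3 kinds of liver formed 3 separate steps. The rise came to 0.82 ± 0.235 (SE, adjusted p = 0.0162 by edgeR) against all controls, and it did not pass without KO 1 (0.67, edgeR adjusted p = 0.0586). Against the WT Cre controls it was 1.32 (edgeR adjusted p = 0.00024) and against the MCS controls 0.45 (edgeR adjusted p = 0.0559), and the WT Cre controls were lower than the MCS controls with a log2FC of -0.87 (edgeR adjusted p = 0.0421). The gene overlaps 3 annotated genes on its strand and 1 on the other.

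The pseudogene Cyp2d41-ps (chromosome 15 at 82777931 to 82782110) rose in every KO liver. It had 33, 41 and 30 counts in the WT Cre, 31, 22 and 22 counts in the MCS controls and 1358, 3659, 3186 and 2970 counts in KO 1 to 4. Its mean went from 1.30 ± 0.266 CPM (n = 6, SD) to 120.3 ± 24.8 CPM (n = 4, SD), a ratio of 92.3, and the log2 fold change was 6.52 ± 0.176 (SE, adjusted p = 8.73e-11 by edgeR). On 100-base windows 98.6% of its transcript was its own and on 50-base windows 81.3%, and in the deposited FPKM it went from 3.59 to 57.1. The annotated gene Gm27618 overlaps it on the same strand. No control came near any KO liver. By contrast Cyp2d40, a neighbour in number, had 85.7 ± 27.4 CPM (n = 6, SD) in the controls and 98.5 ± 65.8 CPM (n = 4, SD) in KO (log2FC 0.20, adjusted p = 0.732 by edgeR).

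Cyp2d26 stood at 748, 586, 515 and 466 CPM in KO 1 to 4 against 809.7 to 1149.9 CPM in the controls (log2FC -0.74, adjusted p = 0.00221 by edgeR), and Cyp2d22, often likened to human CYP2D6, at 218, 202, 174 and 172 CPM against 255 to 355 CPM (log2FC -0.67, adjusted p = 0.00117 by edgeR). Neither overlapped the controls. Cyp2d10 had 732 ± 53.9 CPM (n = 6, SD) in the controls and 701 ± 124 CPM (n = 4, SD) in KO and did not pass (log2FC -0.06, adjusted p = 0.734 by edgeR), with the opposite sign under library size only and in the FPKM table. Of the pseudogenes, Cyp2d37-ps (log2FC -0.94, adjusted p = 0.0142 by edgeR) and Cyp2d38-ps (log2FC -0.93, adjusted p = 0.0252 by edgeR) fell. Cyp2d36-ps (log2FC -1.52, adjusted p = 0.0387 by edgeR) fell as well, but lost the call under 12 of 17 alternatives, 8 of them the omission of 1 liver (WT Cre control 2 or 3, any 1 MCS control, or KO 2, 3 or 4), with edgeR adjusted p from 0.0509 to 0.11. Cyp2d11 rose from 1.10 ± 0.513 CPM (n = 6, SD) to 3.09 ± 0.810 CPM (n = 4, SD) (log2FC 1.51, adjusted p = 0.00317 by edgeR).

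Cyp2e1 (chromosome 7 at 140763739 to 140774987), which oxidises ethanol, acetone and paracetamol and lies in the pericentral zone, was the highest member of the family per length in the controls, at 2274 CPM per kb of exon, and in KO stood at 784. The WT Cre controls had 4219.5, 3936 and 3509.6 CPM, the MCS controls 5979, 5748 and 6053 CPM and KO 1 to 4 1834, 1945, 1648 and 1338 CPM. The groups did not overlap, and the KO mean came to 34.5% of that in the controls. Its log2FC of -1.54 ± 0.192 (SE, adjusted p = 6.73e-05 by edgeR) kept its direction and passed under all 17 alternatives, with log2 fold changes from -1.61 to -1.31. In KO the highest members per length were Cyp2e1, Cyp2d9 at 737 and Cyp2f2 at 641 CPM per kb.

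Cyp2f2 (chromosome 7 at 27119909 to 27133660), which bioactivates naphthalene and in liver marks the periportal zone, fell less than Cyp2e1 in size. It had 1594, 1519, 1510.4, 1656, 1912 and 1981 CPM in WT Cre controls 1 to 3 and MCS controls 1 to 3 and 1125, 1498, 1212 and 1354 CPM in KO. KO 2 reached just below the lowest control. The log2 fold change was -0.39 ± 0.129 (SE, adjusted p = 0.0315 by edgeR). Against the WT Cre controls alone it did not pass (log2FC -0.25, adjusted p = 0.169 by edgeR) and against the MCS controls alone it did (log2FC -0.51, adjusted p = 0.00914 by edgeR). The fall from all controls did not pass under library size only (-0.20, edgeR adjusted p = 0.194), without KO 1 (-0.32, adjusted p of 0.0508), KO 3 (-0.34, adjusted p of 0.0971) or any 1 of the MCS controls (-0.39 to -0.34, adjusted p of 0.0502 to 0.0669).

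The Cyp2j epoxygenases, of which Cyp2j5 is the main one in mouse liver and kidney, all had lower means in KO. Cyp2j8 reached the minimum of counts only through the controls. Of 4 members 2 fell (50%, against 16.6% of all genes) and 0 rose (against 19.7%), and the subfamily total in KO was 19.8% of the control mean. Without KO 1 it was 13.7%.

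Cyp2j5 (chromosome 4 at 96628773 to 96664154) had 550.3, 538 and 531 CPM in the WT Cre controls, 709.5, 715 and 821 CPM in the MCS controls and 200.5, 83.9, 47.1 and 41.2 CPM in KO 1 to 4. KO 1 held more than the other KO livers and far less than the lowest control. The log2 fold change of -2.79 ± 0.457 (SE, adjusted p = 0.00115 by edgeR) was the largest fall among the 15 members that fell. Cyp2j9 had 3.71, 2.65, 1.01 and 0.918 CPM in KO against 7.10 to 16.8 CPM in the controls (log2FC -2.75, adjusted p = 0.000545 by edgeR). Cyp2j6 had 75.7, 41.2, 43.8 and 39.9 CPM in KO against 48.5 to 113 CPM in the controls and did not pass (log2FC -0.63, adjusted p = 0.0861 by edgeR), although it passed without KO 1 (-0.90, edgeR adjusted p = 0.0174) or without WT Cre control 3 (-0.72, adjusted p of 0.0427). Cyp2j8 was under 1 CPM in every liver.

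The remaining subfamilies have 1 member each. Cyp2r1, the vitamin D 25-hydroxylase, had 19.7, 19.3, 18.3, 17.7, 20.6 and 20.2 CPM in the 6 controls and 13.4, 11.03, 9.23 and 7.46 CPM in KO. The controls were tight and all KO livers lay below them (log2FC -0.92, adjusted p = 0.000308 by edgeR). Cyp2u1, a fatty acid hydroxylase, had 33.9, 44.03, 38.8, 60.9, 51.6 and 20.8 CPM in the controls and 174, 187, 171 and 76.5 CPM in KO (log2FC 1.87, adjusted p = 0.00105 by edgeR), where KO 4 was at less than the other KO livers but above every control. Cyp2u1 overlaps 4930534D22Rik on the opposite strand.

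Cyp2s1, an epithelial gene that responds to the Ah receptor, rose at a low level, from 0.122 to 0.391 CPM to 0.586, 1.94, 2.11 and 0.497 CPM (log2FC 2.31, adjusted p = 0.00152 by edgeR). Cyp2g1, known from olfactory mucosa, was below 1 CPM in every liver, at 0.0834 to 0.727 CPM in the controls and 0.0395 to 0.211 CPM in KO (log2FC -2.04, adjusted p = 0.0344 by edgeR), and did not pass with any 1 of KO 1, KO 2, KO 4 or the MCS controls left out (-1.93 to -1.75, edgeR adjusted p = 0.0605 to 0.101). Cyp2t4 (0.130 to 0.333 and 0.130 to 0.295 CPM) did not pass (log2FC -0.20, adjusted p = 0.742 by edgeR). Cyp2w1 had 0 counts in all livers.

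**Figure D4:**
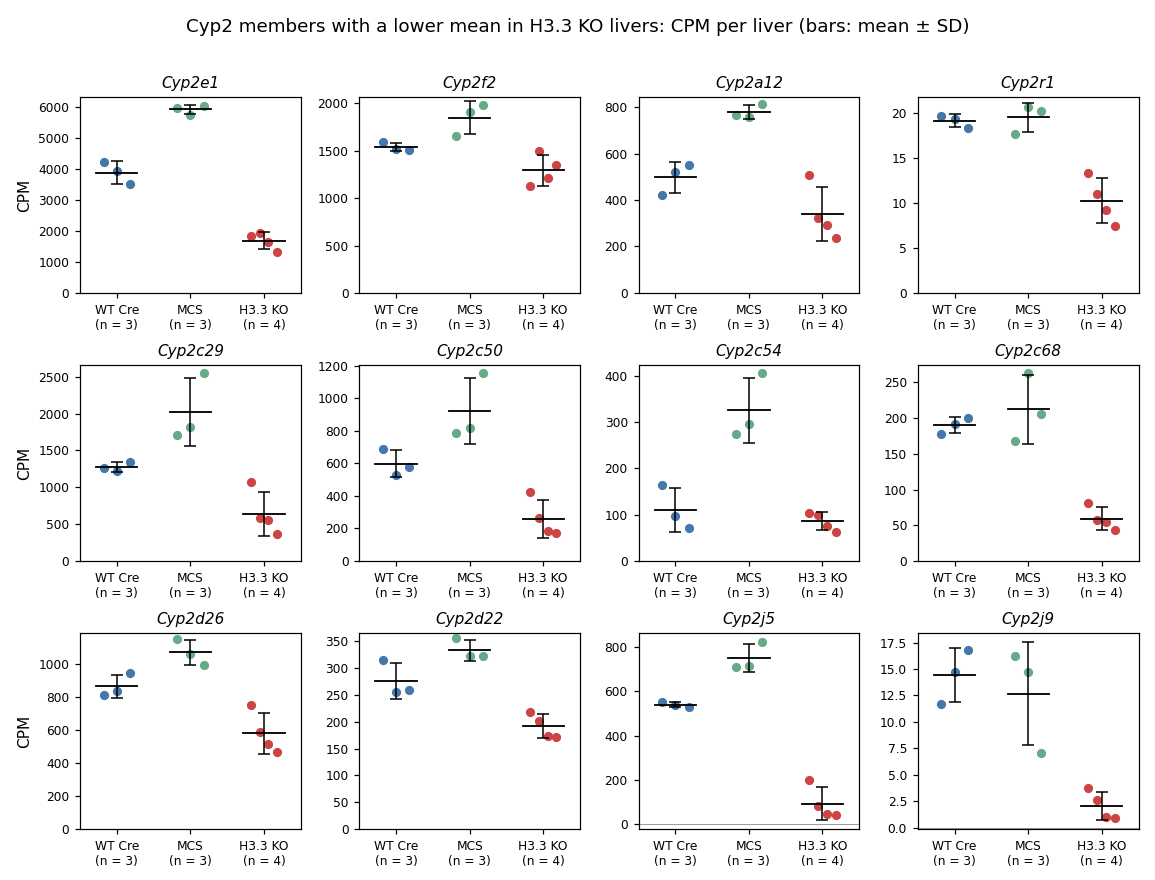
CPM per liver of 12 members with a lower mean in KO, in the WT Cre controls (blue, n = 3), MCS controls (green, n = 3) and H3.3 KO livers (red, n = 4), with the mean and SD in black and a linear axis for each gene. KO lies below all controls in every panel except Cyp2a12, where KO 1 overlaps the WT Cre controls, and Cyp2c54, which did not pass. The MCS controls lie above the WT Cre controls for Cyp2e1 and Cyp2j5.

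Groups of members with a shared property were described by their counts, to be read against the 19.7% of all genes that rose and the 16.6% that fell. Of the 6 members listed as female-biased, 5 rose (19.7% of all genes did) and Cyp2c40 did not pass, with a median log2 fold change of 3.76, and their sum ran from 1319 to 1902 CPM in KO and from 19.96 to 206 CPM in the controls. The 5 include Cyp2c69, which was below every control in KO 1 and did not pass on the FPKM scale. The single member listed as male-biased, Cyp2d9, rose too. Of 6 members listed as CAR-inducible, Cyp2b10 and Cyp2c55 rose, Cyp2c29 and Cyp2c50 fell and 2 did not pass. Of 6 pericentral members, Cyp2e1, Cyp2c29 and Cyp2c50 fell, Cyp2a5 rose and 2 did not pass, and the single periportal one, Cyp2f2, fell. Of 8 genes listed as epoxygenases or with other roles outside drug clearance, 6 were tested, Cyp2u1 and Cyp2s1 rose, Cyp2j5, Cyp2j9 and Cyp2r1 fell and Cyp2j6 did not pass.

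The partners of these enzymes were examined as lists of their own, to be read against the 19.7% of all genes that rose and the 16.6% that fell. Of 6 electron donors Por, the oxidoreductase that feeds all of them, rose (log2FC 0.54, adjusted p = 0.0297 by edgeR) and 5 did not pass. Of 8 haem synthesis genes 5 fell and 0 rose, with a median log2 fold change of -0.59. Alas1, the first and rate-limiting enzyme of the pathway, went from 516 ± 237 CPM (n = 6, SD) to 135 ± 31.9 CPM (n = 4, SD), at a log2FC of -1.94 ± 0.306 (SE, adjusted p = 0.000643 by edgeR). Among 9 xenobiotic receptors and their partners 5 fell and Arnt rose, with a median of -0.31. Nr1i3, which encodes CAR, went from 84.9 ± 25.2 CPM (n = 6, SD) to 33.6 ± 11.3 CPM (n = 4, SD) (log2FC -1.34, adjusted p = 0.00237 by edgeR), Ahr fell (log2FC -1.10, adjusted p = 0.00011 by edgeR) and Nr1i2, which encodes PXR, did not pass (log2FC -0.08, adjusted p = 0.642 by edgeR).

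Among hepatocyte transcription factors, Prox1 rose (log2FC 0.69, adjusted p = 0.0023 by edgeR), Foxa2 fell (log2FC -1.08, adjusted p = 0.00235 by edgeR) and Hnf4a, which many liver P450 genes depend on, did not pass (log2FC -0.55, adjusted p = 0.0763 by edgeR). In the growth hormone axis, which sets sex-biased Cyp2 expression in liver, 3 of 10 genes fell, 2 rose and 5 did not pass, against 16.6% of all genes that fell and 19.7% that rose, with a median of -0.34. The female-biased repressor Cux2 rose from 0.524 ± 0.346 CPM (n = 6, SD) to 22.8 ± 5.31 CPM (n = 4, SD) (log2FC 5.40, adjusted p = 1.12e-06 by edgeR), and Ghr (log2FC -0.82, adjusted p = 0.00331 by edgeR), Stat5b (log2FC -0.31, adjusted p = 0.0385 by edgeR) and Igf1 (log2FC -0.88, adjusted p = 0.000509 by edgeR) fell.

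KO livers differed among themselves. Among 39 members with a mean of at least 1 CPM, KO 1 was the highest KO liver for 25 and the lowest for 9, and KO 4 was the lowest for 27 and the highest for 3. Summed Kupffer cell markers were 579, 898, 933 and 1257 CPM in KO 1 to 4 against 248 to 468 CPM in the controls, and stellate cell markers 579, 628, 640 and 898 CPM against 265 to 344 CPM. Of the other cell types' markers, 7 of 10 for lymphocytes, 3 of 9 tested for cholangiocytes and 2 of 10 for endothelial cells rose and 0 fell, against 19.7% of all genes that rose, so the endothelial count was near that share. Marker levels and Cyp2 levels thus differed between the same livers, and the part of the markers' cells in the Cyp2 values was not tested.

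The 2 kinds of control ask different things of KO, since the WT Cre controls share its virus and the MCS controls its genotype. Against the WT Cre controls 19 members were higher (36.5%) and 10 lower (19.2%), with 15.3% and 13.1% of all genes in the same directions. Against the MCS controls 15 were higher (28.8%) and 19 lower (36.5%), with 17.3% and 14.8% of all genes. These comparisons share the 4 KO livers. The count of higher members against the WT Cre controls was 9 without WT Cre control 1, 12 without WT Cre control 2, 12 without WT Cre control 3 and 12 without KO 3, and that of lower members was 16 without KO 1. Calls over all genes moved the same way in these fits. Higher genes went from 3444 to 2338, 2295, 2321 and 2760 in that order, and lower genes from 2939 to 3845 without KO 1.

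Between the kinds of control, edgeR called 0 members higher and 2 lower with WT Cre (3.85%, Cyp2d9 and Cyp2c54) at an adjusted p under 0.05, against 0.441% and 0.486% of all genes. With an absolute log2 fold change over 1, only Cyp2c54 (1.92%) differed, against 0.641% of all genes. At an unadjusted p under 0.05 there were 4 higher and 14 lower, a share not counted over all genes. DESeq2 called 2 members higher and 6 lower at an adjusted p. Over the 22449 genes it called 309 higher and 334 lower, where edgeR called 99 and 109. With any 1 of WT Cre controls 2 and 3 or MCS controls 1 to 3 left out edgeR called 0 members lower, and without WT Cre control 1 it called 1, while it called 1 higher without WT Cre control 3. With 1 control left out, its lower calls over all genes also dropped, to between 29 and 80. In 23 members (44.2%) all WT Cre controls lay below all MCS controls and in 6 (11.5%) all lay above, against 11.2% and 11% of all genes. The 23 included Cyp2e1, Cyp2f2, Cyp2j5, Cyp2c29, Cyp2c50, Cyp2a12 and Cyp2d26, and the 6 included Cyp2a4, Cyp2a5 and Cyp2c38.

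Against both kinds of control, 14 members were higher and 9 lower. A further 6 members passed against the WT Cre controls only and 11 against the MCS controls only. The shares of all genes in these classes were not counted, so the counts cannot be called high or low for the family. Of the 15 members that fell against all controls, 6 passed only against the MCS controls, namely Cyp2a12, Cyp2f2, Cyp2g1, Cyp2d36-ps, Cyp2d37-ps and Cyp2d38-ps. Against the WT Cre controls these 6 had log2 fold changes from -1.07 to -0.25 and edgeR adjusted p from 0.0708 to 0.367, and the difference between the kinds of control passed for none of them (edgeR adjusted p from 0.145 to 0.829). The remaining 9 passed against both kinds. Cyp2c70 was higher than the WT Cre controls (log2FC 1.16, adjusted p = 0.0177 by edgeR) and not separated from the MCS controls (log2FC 0.36, adjusted p = 0.399 by edgeR), and so was Cyp2c67 (log2FC 0.48, adjusted p = 0.0325 by edgeR, and log2FC -0.27, adjusted p = 0.197 by edgeR). Cyp2c38 was lower than the WT Cre controls (log2FC -1.42, adjusted p = 0.0204 by edgeR) at 79.04, 36.3, 40.03 and 19.8 CPM in KO, 113, 109 and 129 CPM with WT Cre and 38.7, 27.5 and 34.4 CPM in the MCS controls. Against the MCS controls its log2 fold change was 0.38 (edgeR adjusted p = 0.494). For none of these 3 did the direct difference between the kinds of control pass (Cyp2c70, log2FC -0.80, adjusted p = 0.397 by edgeR, Cyp2c67, log2FC -0.75, adjusted p = 0.055 by edgeR, and Cyp2c38, log2FC 1.80, adjusted p = 0.103 by edgeR).

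The count table and the deposited FPKM table were set side by side for each member, as CPM per kb of exon and as FPKM. Over the 39 members with at least 1 mean CPM the ratio of FPKM to CPM per kb ran from 0.2 to 26.2, with a median of 0.925 for the 18 members with at least 90% own 50-base windows and 1.09 for the other 21. It was over 4 for Cyp2c40, Cyp2c69, Cyp2d11 and Cyp2d12, of which Cyp2c40 stood at 24.5 FPKM and 0.936 CPM per kb. Cyp2d11, which rose on counts, had 18.5 FPKM in the controls and 18.7 FPKM in KO. Cyp2e1, Cyp2a4, Cyp2a5, Cyp2b9, Cyp2b10 and Cyp2b13 had ratios from 0.866 to 1.06.

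**Figure D5:**
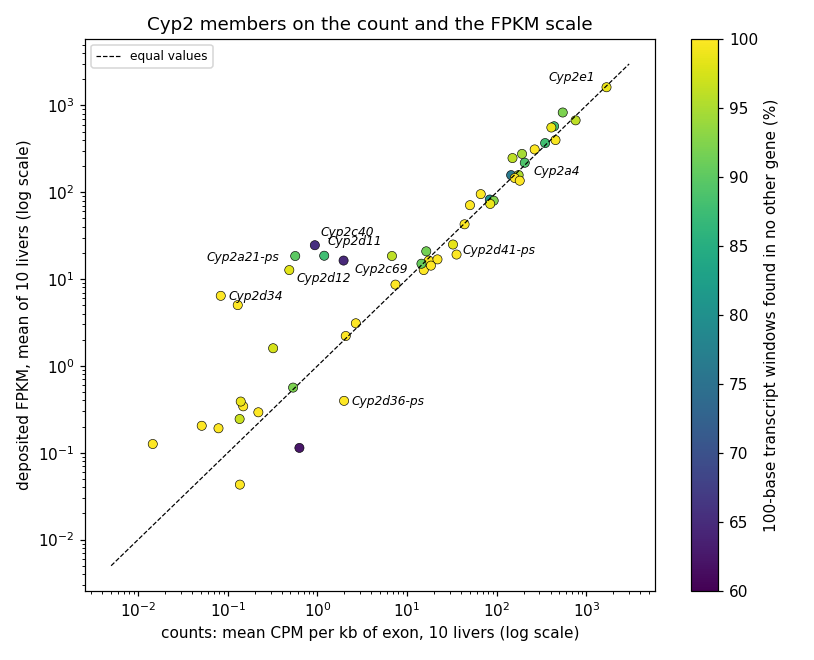
Mean level of 52 Cyp2 members over 10 livers on both deposited scales, CPM per kb of exon from the counts (x axis, log scale) and FPKM (y axis, log scale), with colour for the share of 100-base transcript windows found in no other gene. Abundant members such as Cyp2e1 lie near the dashed line of equal values, and Cyp2c40, Cyp2c69, Cyp2d11 and Cyp2d12 lie above it.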

How the data were processed

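Poly(A) RNA of 10 livers was sequenced from directional libraries. The deposited counts are raw reads per gene made by the authors, and the deposited FPKM values, per length and depth, were used only as an alternative scale. The submitters' processing notes list mm10, STAR, HTSeq and Cufflinks, whereas the study's methods name HOMER for gene counts, and which of them made the count table is not settled by these sources. The treatment of reads with several matches and the strand setting are not given in the sources used here. Total counts ran from 14998426 to 26096141 per liver, and floors of 3 counts cover counting error only. Columns named only as controls were matched to the kinds of control by library number.

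Genes with at least 10 counts over the 10 livers (22449) were fitted with edgeR 4.0.16 (R 4.3.3, TMM, robust quasi-likelihood F test, Benjamini-Hochberg over all genes), in a fit with KO and all controls and a fit with the 3 groups for each kind of control. The SE of a log2 fold change was derived as its absolute value over the square root of the F statistic. The script was tested on simulated data. Alternatives were DESeq2 1.42.0, library size only, filterByExpr, a filter of 1 count, limma 3.58.1 on log2(FPKM + 1) and log2(FPKM + 0.1), a replicate block and each liver left out. Since the labels do not say that livers of a group are separate litters or extractions, p-values measure the spread between these livers. Sequences and promoters were handled with Python 3.11.15 and pandas 2.3.3.

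The members and lists were chosen with earlier results of these data known. The count over the listed transcription factors is not reported here. Members were named when highest in their subfamily, among the 12 with the highest mean CPM, among the 8 largest rises or falls over an absolute log2 fold change of 1 with at least 1 mean CPM, when past both thresholds between the kinds of control, or when on a Cyp2 list. Cyp2a21-ps, Cyp2b19, Cyp2b27-ps, Cyp2c38, Cyp2c53-ps, Cyp2c67, Cyp2d11, Cyp2d12, Cyp2d22, Cyp2d32-ps, Cyp2d37-ps, Cyp2d38-ps, Cyp2d40 and Cyp2j8 were named after their values were seen.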

Additional observations from a re-analysis of the deposited data

Results flagged for a closer look

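In 76 groups of 4 or 6 livers, 7 held a liver whose gap to the next was large for the range of its group (Dixon's 95% critical value). That is 9.21%, where chance gives about 5%. Cyp2b13 stood at 213 CPM in KO 1 and at 7.496 to 24.3 CPM in the other KO livers. The Cyp2b total stood at 1031 CPM in KO 1 and at 465 to 527 CPM in the others, and it holds Cyp2b13. Cyp2j6 stood at 75.7 CPM in KO 1 and at 39.9 to 43.8 CPM in the others. Cyp2u1 stood at 76.5 CPM in KO 4 and at 171 to 187 CPM in the others.

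Among the controls, WT Cre control 3 was apart for Cyp2a4, at 114 CPM against 1.56 to 24.2 CPM in the other 5, and for Cyp2b9, at 74.6 CPM against 5.63 to 24.5 CPM. Cyp2d36-ps stood at 8.14 CPM in MCS control 1 and at 2.38 to 3.58 CPM in the other controls.

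The kinds of control differed for Cyp2d9, with a log2FC of -0.87 in WT Cre against MCS (adjusted p = 0.0421 by edgeR), and for Cyp2c54, with -1.55 (adjusted p = 0.0469 by edgeR). These control groups differ in genotype and in vector at once, so the difference cannot be told apart between them.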

How the results depend on the processing

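Of 542 values of 32 named members under the alternatives, 484 kept direction and side of the threshold, 38 no longer passed, 13 newly passed and 7 changed sign. The sign changes were those of Cyp2d10 (0.11 by library size only, 0.078 on both FPKM scales), Cyp2c40 (-0.24 on log2(FPKM + 1), -0.25 on log2(FPKM + 0.1)) and Cyp2t4 (0.0094 and 0.066), none of which passed under edgeR. Scaling by library size only set the median log2FC over the genes tested to 0.17, the family total in KO to 0.888 of the controls and Cyp2f to 0.871.

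Between the kinds of control, members higher in the WT Cre controls numbered 2 by DESeq2, 1 with filterByExpr and 1 with a replicate block, and members lower numbered 6 by DESeq2, 5 with the block and 0 by limma on either FPKM scale, against 0 and 2 by edgeR. The calls over all genes moved too. Higher genes numbered 309 by DESeq2, 106 with filterByExpr and 208 with the block, against 99 by edgeR. Lower genes numbered 334 by DESeq2, 178 with the block and 50 and 46 by limma, against 109 by edgeR. With each liver left out, both counts of members ran from 0 to 1. In the other comparisons these ranges were 14 to 17 higher and 12 to 16 lower against all controls (with a log2 fold change over 1, 13 to 15 and 6 to 11), 9 to 18 and 7 to 16 against the WT Cre controls, and 11 to 16 and 16 to 21 against the MCS controls.

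With each liver left out, the KO to control ratio of summed CPM ran from 0.738 to 0.823 for the family, 1.77 to 2.00 for Cyp2a, 12.03 to 19.9 for Cyp2b, 0.605 to 0.707 for Cyp2c, 1.02 to 1.18 for Cyp2d, 0.326 to 0.369 for Cyp2e, 0.726 to 0.799 for Cyp2f, 0.139 to 0.271 for Cyp2g, 0.137 to 0.227 for Cyp2j, 0.478 to 0.580 for Cyp2r, 3.85 to 5.90 for Cyp2s, 0.719 to 0.948 for Cyp2t and 3.32 to 4.26 for Cyp2u.

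The cause of these changes was not tested. The labels number replicates in each group. Of 9 pairs with the same number 3 had a correlation of deviations over 0.1 (range -0.12 to 0.20). Pairs with different numbers ran from -0.21 to 0.099. Between the WT Cre and MCS controls the same-number values (0.12, 0.12 and 0.094) lay above all values for different numbers (at most 0.018). The main fit did not use the numbers as pairs, and whether livers were paired is not settled by these values. With the replicate block, 13 members rose and 12 fell against all controls, and Cyp2a4 (5.10, edgeR adjusted p = 0.0587), Cyp2c69 (2.67, 0.0621), Cyp2a12 (-0.79, 0.0547), Cyp2f2 (-0.41, 0.0624) and Cyp2g1 (-1.96, 0.125) no longer passed. Calls dropped over all 22449 genes as well, to 3543 higher and 2768 lower with the block from 4429 and 3726 in the main fit. Members with few counts or shared windows are the least certain, and the match of control columns to kinds touches every value for one kind of control.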

Other observations

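Names of the family under the minimum of 10 counts were also present in the deposited FPKM table. Of 19 such names 13 had an FPKM above 0 in at least 1 liver, among them 4 of the 10 with 0 counts. Cyp2c66 had 0 counts and an FPKM above 0 in 10 livers, of at most 0.196, and Cyp2c71-ps had 0 counts and at most 0.628 FPKM in 8 livers. Cyp2c72-ps had 3 counts in all and at most 2.69 FPKM. Cyp2w1 had 0 counts and at most 0.11 FPKM, in 4 livers. These names are given after their values were seen.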
